A study of Rattus norvegicus with 24 samples.

Results

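The genes described here are those of the unfolded protein response and the integrated stress response, 33 genes chosen by symbol from the 23095 genes of the deposited table. RNA was sequenced from the dorsal skin of Sprague-Dawley rats at day 7 after an injection of T-gel, which the series title calls a biodegradable polymer, or of saline. Injections were intradermal (ID, within the skin) or subcutaneous (SC, beneath it), which gave 4 groups, ID gel, ID saline, SC gel and SC saline, with 6 libraries each and 24 in all. The labels give no genotype other than the strain, no age and no sex for any group, and they do not say that replicates were separate animals, so p-values measure the spread between these samples only.

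The endoplasmic reticulum folds and glycosylates the proteins that a cell secretes or places in its membranes. When unfolded protein builds up there, the membrane sensors IRE1, PERK and ATF6 start the unfolded protein response: IRE1 splices the mRNA of Xbp1, ATF6 is cleaved to a transcription factor, and PERK phosphorylates eIF2α, which slows translation in general but lets Atf4 mRNA be translated. ATF4 also answers to kinases that sense amino acid shortage, viral RNA or heme deficiency, and this wider circuit is the integrated stress response. In skin, cells with a heavy secretory load, such as collagen-making fibroblasts and plasma cells, depend on this machinery. The counts used here measure RNA, and neither the splicing of Xbp1, the cleavage of ATF6 nor any phosphorylation was measured.

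Libraries held 14024353 to 18821730 counts. Levels are given as CPM, a library's counts scaled to a common total with TMM factors, and as the lowest, the median and the highest of the 6 libraries of a group. Fold changes are log2 values from edgeR's quasi-likelihood test ± SE, with Benjamini-Hochberg adjusted p over the 14763 genes tested. A gene is said to have risen or fallen where that adjusted p was under 0.05. Of the 33 genes, 31 were tested. Ppp1r15a, whose product GADD34 leads the phosphatase that reverses eIF2α phosphorylation, had 0 counts in all 24 libraries, where 3 counts correspond to 0.159 to 0.214 CPM. Its annotation overlaps Nucb1 on the same strand, and how the counting treated reads shared by both is not known here. Manf, a secreted factor of the endoplasmic reticulum, had 91 counts over all libraries and overlaps Rbm15b on the same strand. It ranged from 0.131 to 1.12 CPM in ID gel and 0 to 0.114 in ID saline. In SC gel it ranged from 0.0567 to 0.527 and in SC saline from 0.0511 to 0.321. The filter on low counts removed Manf, and only the fit without a filter tested it. No other gene of the set overlaps a gene of its own strand, and 9 of the 33 overlap a gene of the opposite strand, among them Ddit3 (with Mars1), Derl3 (with Smarcb1), Dnajb11, Pdia6, Syvn1 and Derl1. The libraries were stranded, but whether the counting used strand is not stated in the sources used here, so reads of such pairs may not have been told apart.

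With gel placed intradermally, nearly the whole set rose. In ID gel against ID saline 30 of the 31 tested genes were higher and 1, Chac1, was lower. Over all genes tested, 73.6% were called in this comparison, 36.6% higher and 37.0% lower. The median log2 fold change of the 31 genes was 0.97, and that of all tested genes was -0.01. In 27 of the 31 every ID gel library lay above every ID saline library, which held for 29.1% of all genes, and in 1 every gel library lay below, which held for 27.5%. The 3 genes that rose although their groups overlapped were Ern1, Atf4 and Herpud1. In bulk tissue, a change in the number of cells of a type and a change in RNA per cell cannot be told apart. The summed level of 8 macrophage markers was 11463 to 17468 CPM in ID gel, 618 to 1348 CPM in ID saline, 1164 to 4273 CPM in SC gel and 974 to 1273 CPM in SC saline, and of these markers 7 rose in ID gel, whereas 5 rose and 1 fell in SC gel. Of all genes tested, 24.7% rose and 26.1% fell in SC gel. No macrophage marker was at 0 in all 24 libraries. The part of macrophages in the rise of the stress genes was not tested.

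**Figure D1:**
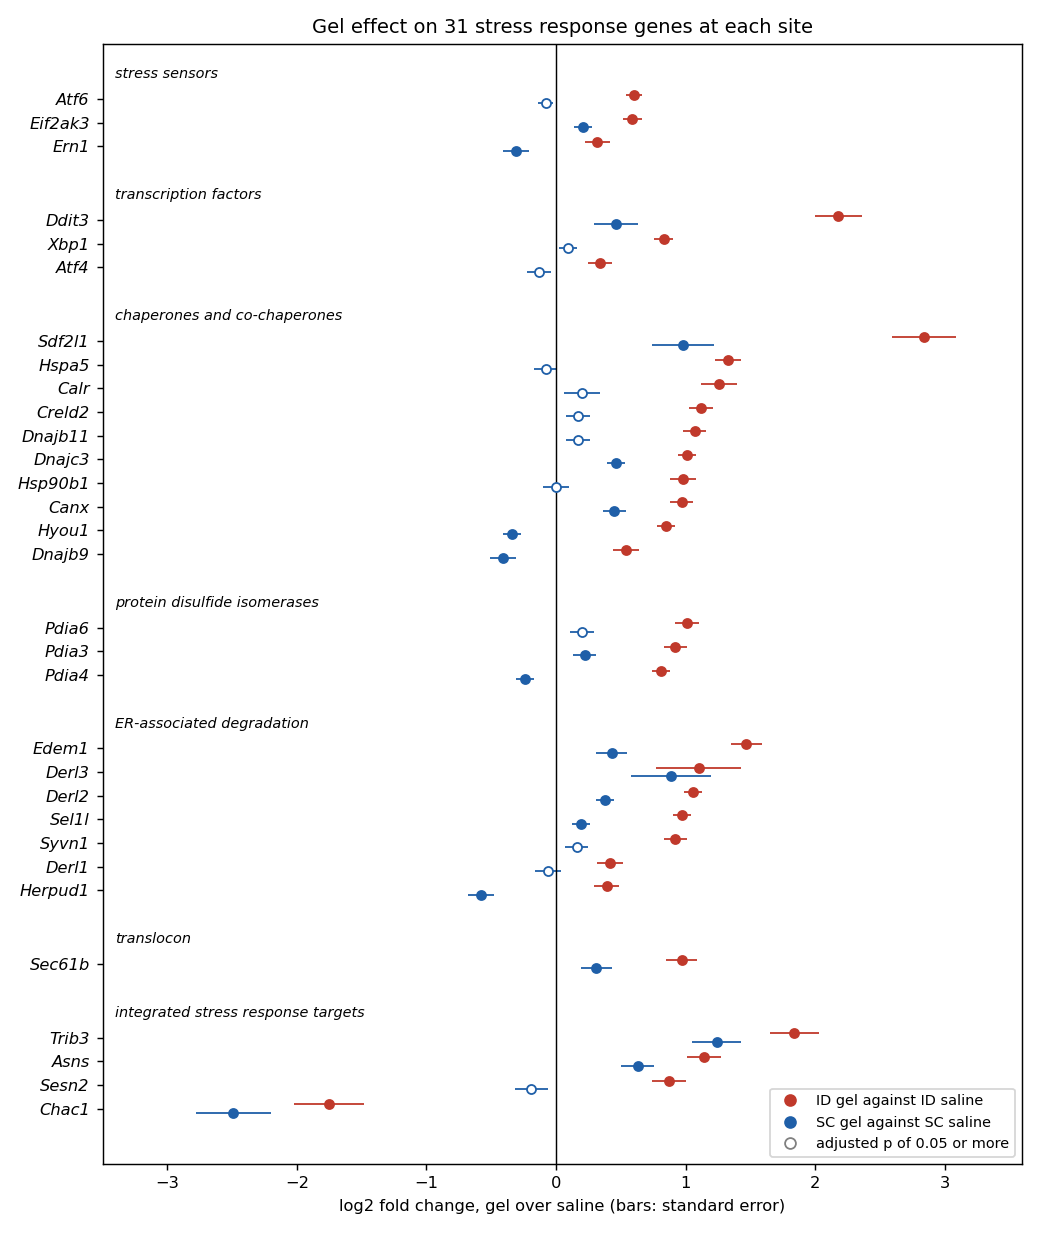
Log2 fold change of gel over saline (horizontal axis; bars are standard errors) for the 31 tested genes, grouped by role; red points are ID gel against ID saline, blue points SC gel against SC saline, and open points have an adjusted p of 0.05 or more. All red points except that of Chac1 (-1.75) lie right of 0, while the blue points lie on both sides, with a median of 0.17.

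The sensors rose by less than the median of the set. Atf6 stood at 124, 137 and 152 CPM (lowest, median, highest) in ID gel and 79.3, 93.2 and 103 CPM in ID saline. All of its gel libraries were above its saline libraries, with a log2 fold change of 0.60 ± 0.06 and an adjusted p of 1.68e-08. Eif2ak3, which encodes PERK, stood at 45.1, 47.8 and 49 CPM in ID gel and 28, 31.3 and 36 CPM in ID saline. These groups did not overlap either, and the log2 fold change was 0.59 ± 0.07 (adjusted p 1.15e-07). Ern1, which encodes IRE1, stood at 14.4, 16.2 and 19 CPM in ID gel and 12, 12.8 and 14.7 CPM in ID saline. The Ern1 groups overlapped, and its log2 fold change of 0.32 ± 0.10 (adjusted p 0.00757) was the smallest rise of the set; by limma on log2(FPKM + 1) it was 0.14 with an adjusted p of 0.0945.

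Among the transcription factors, Ddit3, which encodes the stress factor CHOP, rose most and Atf4 least. Ddit3 had 19.5, 30.1 and 46.8 CPM in ID gel and 6.24, 6.79 and 8.05 CPM in ID saline. Its lowest gel library was above its highest saline library, and the log2 fold change was 2.18 ± 0.18 (adjusted p 1.69e-10), a 4.52-fold higher level. Xbp1, the target of IRE1, had 184, 217 and 229 CPM in ID gel and 110, 117 and 130 CPM in ID saline. Those groups were also apart, with a log2 fold change of 0.83 ± 0.07 (adjusted p 5.20e-10). Atf4, the central factor of the integrated stress response, had 222, 279 and 324 CPM in ID gel and 201, 215 and 236 CPM in ID saline. The groups overlapped, and the log2 fold change was 0.34 ± 0.09 (adjusted p 0.00191); with gel replicates 4 to 6 alone it was 0.25 with an adjusted p of 0.0543, and Ern1 then had 0.27 with 0.066.

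All 10 tested chaperones and co-chaperones rose in ID gel, each with no overlap between the groups. Of all genes tested, 36.6% rose, and 29.1% had every ID gel library above every ID saline library. Sdf2l1 (ENSRNOG00000001859), a partner of the chaperone BiP, showed the largest change of the set. It had 63.5, 67.5 and 81.2 CPM in ID gel and 8.2, 9.48 and 12.4 CPM in ID saline. The gel libraries were 7.18-fold higher, a log2 fold change of 2.84 ± 0.25 (adjusted p 4.82e-10). Hspa5 (ENSRNOG00000018294), which encodes BiP itself, the main chaperone of the compartment, had 806, 995 and 1099 CPM in ID gel and 340, 393 and 459 CPM in ID saline. Its log2 fold change was 1.33 ± 0.10 (adjusted p 2.20e-11), with all 6 gel libraries above all 6 saline libraries. Calr, the lectin chaperone calreticulin, was the most abundant gene of the set per length, at 685 ± 82.8 FPKM in ID gel and 318 ± 25.4 FPKM in ID saline (mean ± SD, n = 6 each). The remaining chaperones had log2 fold changes between 0.54 for Dnajb9, a co-chaperone that restrains IRE1, and 1.12 for Creld2. In that range lay Dnajb11 and Dnajc3, which stimulate or assist BiP (1.07 and 1.01), Hsp90b1, which encodes GRP94 (0.98), the membrane lectin Canx (0.97) and Hyou1, a nucleotide exchange factor of BiP (0.85).

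The promoters of several of these genes carry the elements through which stress factors are known to act. RefSeq windows on the rat build GRCr8, from 250 bases before to 50 bases after the annotated start, were found for 27 of the 33 genes, as 28 windows. They were searched on both strands for the ER stress response element ERSE (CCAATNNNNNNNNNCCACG), for ERSE-II (ATTGGNCCACG), for the XBP1-type UPR element (TGACGTGG) and for the C/EBP-ATF response element (TGATGNAA), which ATF4 binds with C/EBP partners. ERSE was found in 8 of the 27 genes and in 22 of all 33469 windows (0.0657%). ERSE-II was found in 3 genes and in 17 of all windows (0.0508%). The XBP1-type element was found in 1 gene, Hyou1, where it overlaps an ERSE-II, and in 0.595% of all windows, and the C/EBP-ATF element in 3 genes and in 3.98% of all windows. In 14 of the 27 genes none of these letters was found in the window. The windows are printed 5′ to 3′ along the gene's strand, and a match in the other orientation appears as its reverse complement.
The Hspa5 window is shown whole, since its ERSE, in capitals from -43 to -25 relative to the start, is the textbook example of the element (chr3:38452766-38453065, plus strand).
Hspa5: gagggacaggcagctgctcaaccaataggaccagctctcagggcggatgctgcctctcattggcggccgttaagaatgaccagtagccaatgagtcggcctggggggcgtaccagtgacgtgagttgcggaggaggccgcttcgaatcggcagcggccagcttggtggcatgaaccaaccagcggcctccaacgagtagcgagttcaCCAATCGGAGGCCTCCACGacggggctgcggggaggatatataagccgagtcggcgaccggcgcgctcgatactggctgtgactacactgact
The other ERSE matches are shown with 15 bases on each side, the element in capitals and the place of the whole window, so that the constant ends and the variable middle can be compared.
Xbp1, -65 to -47 in chr14:84604373-84604672, plus strand: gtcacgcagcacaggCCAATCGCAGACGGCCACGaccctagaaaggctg
Dnajc3, -133 to -115 in chr15:102432417-102432716, plus strand: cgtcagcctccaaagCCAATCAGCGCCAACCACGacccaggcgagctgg
Canx, -230 to -212 in chr10:35157808-35158107, minus strand: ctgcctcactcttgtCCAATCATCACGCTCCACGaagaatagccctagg
Hsp90b1, -176 to -158 in chr7:23012244-23012543, minus strand: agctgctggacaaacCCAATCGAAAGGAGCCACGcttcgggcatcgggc
Hsp90b1, -72 to -54 in chr7:23012244-23012543, minus strand: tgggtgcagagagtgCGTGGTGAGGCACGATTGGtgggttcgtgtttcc
Calr, -232 to -214 in chr19:40213117-40213416, plus strand: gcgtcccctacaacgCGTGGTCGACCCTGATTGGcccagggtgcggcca
Creld2, -145 to -127 in chr7:121789134-121789433, plus strand: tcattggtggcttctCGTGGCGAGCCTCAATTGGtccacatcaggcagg
Derl3, -154 to -136 in chr20:12766416-12766715, minus strand: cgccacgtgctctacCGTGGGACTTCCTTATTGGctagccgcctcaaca
The ERSE-II matches, in which ATTGG, the reverse complement of CCAAT, stands 1 base before CCACG, are shown in the same way.
Dnajb11, -10 to 1 in chr11:91672751-91673050, minus strand: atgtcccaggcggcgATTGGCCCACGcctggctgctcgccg
Herpud1, -124 to -114 in chr19:10614658-10614957, minus strand: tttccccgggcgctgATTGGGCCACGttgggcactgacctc
Hyou1, -188 to -178 in chr8:53602632-53602931, plus strand: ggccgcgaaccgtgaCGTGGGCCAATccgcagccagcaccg
Hyou1, -88 to -78 in chr8:53602632-53602931, plus strand: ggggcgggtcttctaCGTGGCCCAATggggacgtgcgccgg

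All 11 genes with an ERSE or ERSE-II match rose in ID gel, with a median log2 fold change of 1.01. Of the 16 genes with a window and neither element, 15 were tested, 14 rose and 1 fell, and the median was 0.97. The 27 genes outside the set that carry either element included 17 tested genes, of which 7 rose and 7 fell in ID gel, with a median of 0.03. Over all genes tested, 36.6% rose and 37.0% fell in ID gel, with a median of -0.01. A match of letters is a description of the window, not a measured binding site.

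**Figure D2:**
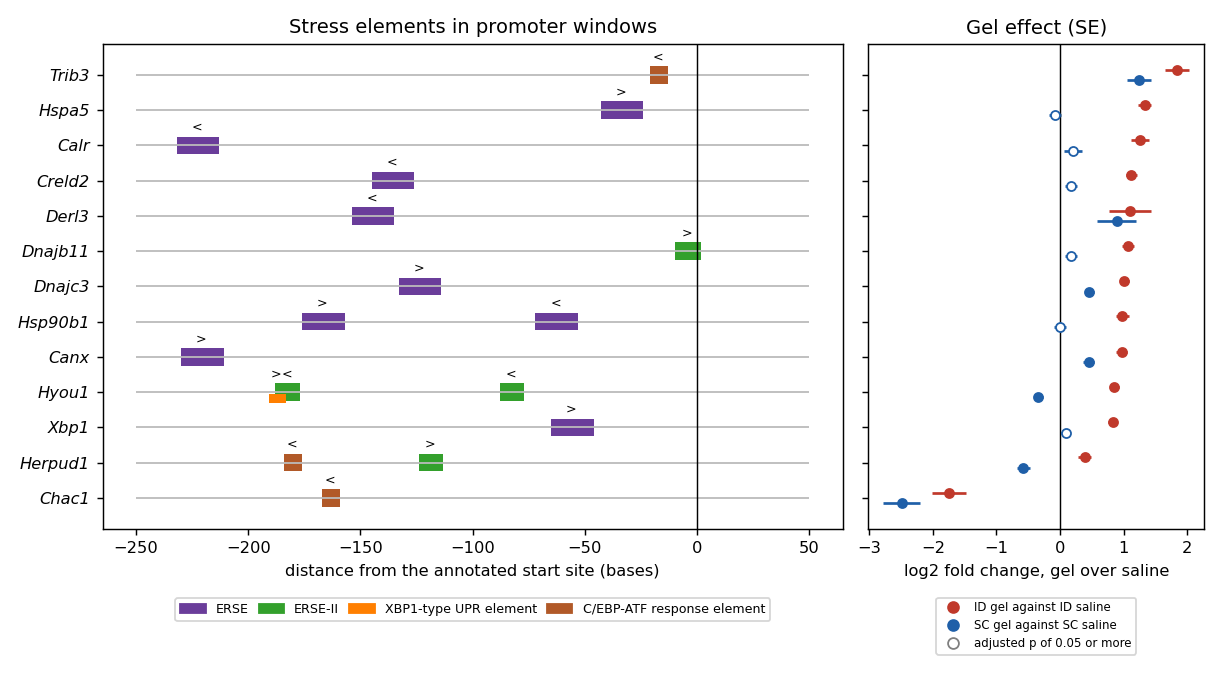
Left, positions of the matched elements in the RefSeq promoter windows of 13 genes, in bases from the annotated start site, with arrowheads for the orientation; right, the log2 fold change of gel over saline for the same genes (red ID, blue SC; bars are standard errors; open points have an adjusted p of 0.05 or more). Trib3 and Chac1 both carry the C/EBP-ATF element and lie at opposite ends, at 1.84 and -1.75 in ID gel against ID saline.

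The protein disulfide isomerases, which form and rearrange the disulfide bonds of folding proteins, rose together in ID gel. Pdia6, Pdia3 and Pdia4 had log2 fold changes of 1.01, 0.92 and 0.81. All 3 had every gel library above every saline library, which held for 29.1% of all genes. Sec61b, a subunit of the channel through which new proteins enter the compartment, had a log2 fold change of 0.97 ± 0.12.

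All 7 genes of ER-associated degradation, which returns misfolded proteins to the cytosol for the proteasome, rose in ID gel, where 36.6% of all genes tested rose. Edem1, a lectin that selects misfolded glycoproteins, had 452, 527 and 631 CPM in ID gel and 173, 198 and 205 CPM in ID saline. The groups were far apart, with a log2 fold change of 1.47 ± 0.12 (adjusted p 1.17e-10). Derl2, of the derlin family of the export machinery, rose by 1.06, and Sel1l and Syvn1, the scaffold and the ubiquitin ligase HRD1 of one complex, by 0.97 and 0.92 on the log2 scale. Derl3, a further derlin, was listed at 0.214 to 2.55 CPM over both ID groups and had a wide error (1.10 ± 0.33). Derl1 (0.42) and Herpud1, which helps to assemble the HRD1 complex (0.39), had the smallest rises of this group.

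**Figure D3:**
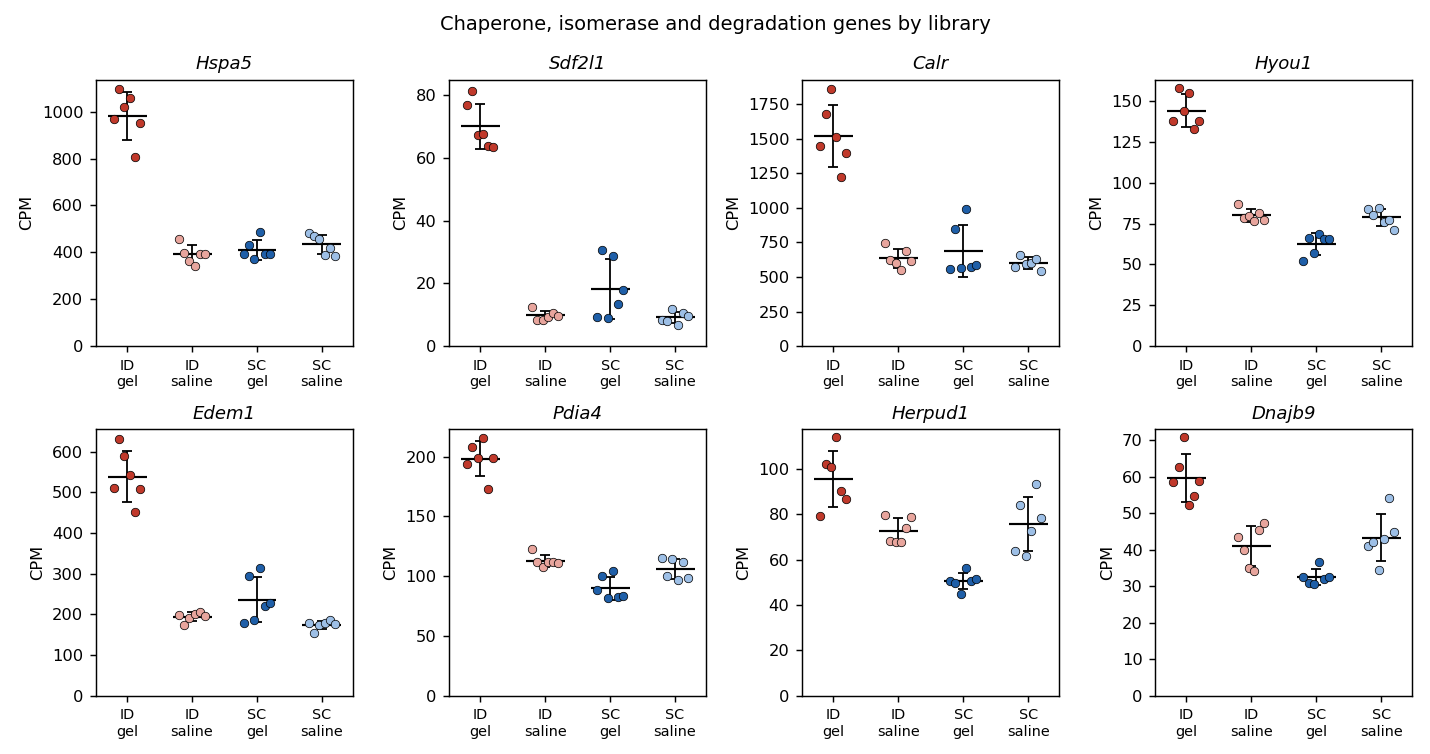
CPM of 8 chaperone, isomerase and degradation genes in every library, by group from left to right ID gel, ID saline, SC gel and SC saline; each point is 1 library and the lines are the mean ± SD of 6. The ID gel libraries stand above the other 3 groups for Hspa5 (806 to 1099 CPM) and Sdf2l1 (63.5 to 81.2 CPM), and the SC gel libraries lie below SC saline for Hyou1 and Herpud1.

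The targets of the integrated stress response did not move as one. Trib3, a pseudokinase that ATF4 and CHOP induce, had 9.01, 14.2 and 20.1 CPM in ID gel and 2.42, 4.48 and 4.91 CPM in ID saline. The groups did not overlap, and the log2 fold change was 1.84 ± 0.19 (adjusted p 5.85e-09). Asns, asparagine synthetase, and Sesn2, a leucine-sensing stress protein, had log2 fold changes of 1.14 ± 0.13 and 0.87 ± 0.13, with no overlap in either. Chac1 (ENSRNOG00000014387), a glutathione-degrading enzyme known as a target of ATF4, went the other way. It had 2.56, 3.93 and 5.47 CPM in ID gel and 10.7, 13.4 and 16.3 CPM in ID saline. Every gel library lay below every saline library, and the log2 fold change was -1.75 ± 0.27 (adjusted p 4.34e-06). Markers of skeletal muscle were lower in gel as well: 7 tested markers summed to 9.81 to 14170 CPM in ID gel, 43141 to 55923 CPM in ID saline, 9.33 to 1398 CPM in SC gel and 25672 to 66477 CPM in SC saline, and of these 7 markers 6 fell in ID gel and 7 in SC gel. Of all genes tested, 37.0% fell in ID gel and 26.1% in SC gel. In the ID gel library with the most muscle marker counts, ID gel 5, Chac1 was at 4.05 CPM, within the range of the other 5. In SC saline 1 and SC saline 3, with muscle sums of 26126 and 25672 CPM, Chac1 was at 3.68 and 6.74 CPM. The other SC saline libraries had muscle sums of 50575 to 66477 CPM and Chac1 at 6.84 to 12.6 CPM. The part of muscle in the fall of Chac1 was not tested.

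The promoter windows of Trib3 and Chac1 are shown whole because these genes changed in opposite directions and both hold the C/EBP-ATF response element, in capitals and in reverse orientation. In Trib3 it lies at -21 to -14 (chr3:161275484-161275783, minus strand), and in Chac1 at -167 to -160 (chr3:126795881-126796180, plus strand).
Trib3: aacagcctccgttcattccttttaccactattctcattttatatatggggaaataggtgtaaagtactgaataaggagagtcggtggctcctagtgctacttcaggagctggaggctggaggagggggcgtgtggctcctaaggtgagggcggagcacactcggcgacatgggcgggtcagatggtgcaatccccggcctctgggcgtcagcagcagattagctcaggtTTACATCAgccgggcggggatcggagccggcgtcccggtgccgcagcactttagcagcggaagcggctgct
Chac1: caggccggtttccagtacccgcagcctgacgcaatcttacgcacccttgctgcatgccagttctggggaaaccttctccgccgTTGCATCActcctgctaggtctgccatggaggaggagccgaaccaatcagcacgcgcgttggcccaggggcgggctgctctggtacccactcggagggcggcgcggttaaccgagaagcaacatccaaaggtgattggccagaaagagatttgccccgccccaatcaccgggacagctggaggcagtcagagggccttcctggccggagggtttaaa
The third gene with this element is Herpud1, where it lies at -184 to -177 beside the ERSE-II shown above.
Herpud1: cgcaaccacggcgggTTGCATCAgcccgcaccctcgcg

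**Figure D4:**
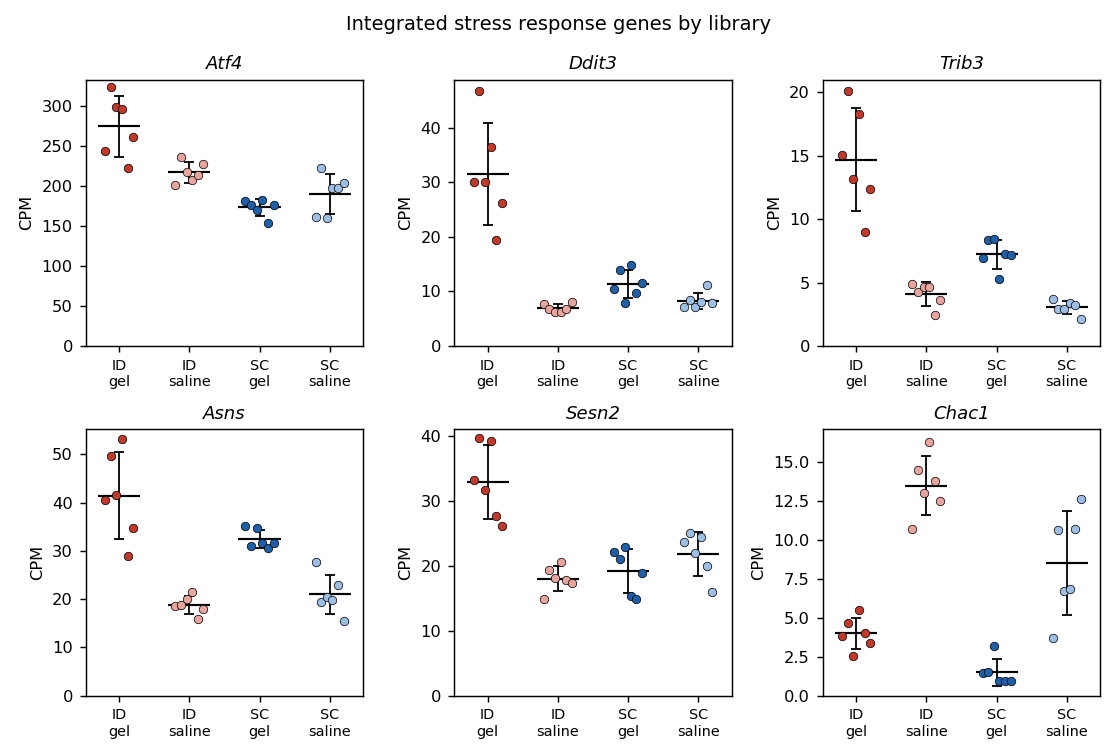
CPM of Atf4, Ddit3 and 4 targets of the integrated stress response in every library, by group; each point is 1 library and the lines are the mean ± SD of 6. Ddit3, Trib3, Asns and Sesn2 are higher in ID gel than in ID saline, whereas Chac1 is lower in gel at both sites, at 2.56 to 5.47 CPM in ID gel and 0.935 to 3.18 CPM in SC gel.

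With gel placed subcutaneously, the set split. In SC gel against SC saline 13 of the 31 tested genes rose, 6 fell and 12 did not pass the test, where 50.8% of all genes were called, 24.7% higher and 26.1% lower. The median log2 fold change was 0.17, against -0.00 for all genes. In 5 genes (Canx, Dnajc3, Derl2, Trib3 and Asns) every gel library was above every saline library, which held for 11.0% of all genes, and in 3 (Hyou1, Herpud1 and Chac1) every gel library was below, which held for 14.0%. By limma on log2(FPKM + 1), where the scaling, the test and the filter on low values all differ, 20 of the 31 rose and 2 fell, and of all genes called the higher ones made up 74.6% in place of 48.7%. With RLE factors in place of TMM factors alone, 15 rose and 6 fell, and 53% of all genes called were higher. Leaving out SC saline 2, whose TMM factor of 0.845 was lowest of all, 19 rose and 4 fell. Of all genes called, 64.5% were then higher, and the median was 0.29 for the 31 genes and 0.13 for all genes.

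The largest subcutaneous rises were those of Trib3, Sdf2l1, Derl3, Asns and Ddit3. Trib3 had 5.28, 7.21 and 8.4 CPM in SC gel and 2.15, 3.09 and 3.68 CPM in SC saline. The groups did not overlap, and the log2 fold change was 1.24 ± 0.19 (adjusted p 1.08e-05). Asns had 30.7, 31.6 and 35.2 CPM in SC gel and 15.5, 20.1 and 27.8 CPM in SC saline. Those groups were also apart, with a log2 fold change of 0.63 ± 0.13 (adjusted p 3.14e-04). Sdf2l1 had 8.91, 15.6 and 30.6 CPM in SC gel and 6.7, 8.97 and 11.9 CPM in SC saline. Its groups overlapped, and the log2 fold change was 0.98 ± 0.24 (adjusted p 0.0017). Ddit3, at 7.89, 11 and 14.9 CPM in SC gel and 7.1, 7.99 and 11.1 CPM in SC saline, passed the test with a small margin (0.46 ± 0.17, adjusted p 0.0321). The adjusted p of Ddit3 was 0.0551 without SC gel 2, 0.0634 without SC gel 4 and 0.0695 without SC saline 1. Derl3 had 0.935, 2.36 and 3.17 CPM in SC gel and 0.594, 1.11 and 1.94 CPM in SC saline, with a log2 fold change of 0.89 ± 0.31 (adjusted p 0.0204).

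The Sdf2l1 values came apart within the SC gel group. Libraries SC gel 2 and SC gel 4 had 30.6 and 28.6 CPM of Sdf2l1, and the other 4 had 8.91 to 17.9 CPM. The same libraries were highest for Calr (851 and 993 CPM, the others 559 to 588) and for Edem1 (294 and 313 CPM, the others 178 to 227). They also had the highest sums of 8 macrophage markers in the group, 4057 and 4273 CPM, where the others had 1164 to 2192 CPM. The part of macrophages in these values was not tested. Without both libraries, a choice made after seeing these values, 9 genes rose and 6 fell, the log2 fold change of Sdf2l1 was 0.47 (adjusted p 0.035), that of Edem1 was 0.25 (adjusted p 0.0304), and that of Ddit3 was 0.30 with an adjusted p of 0.193. Of all 14989 genes tested in that fit, 3474 rose and 3236 fell. SC gel 4 was the highest library of its group for 19 of the 31 genes.

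The subcutaneous falls were Chac1, Herpud1, Dnajb9, Hyou1, Ern1 and Pdia4. Chac1 had 0.935, 1.21 and 3.18 CPM in SC gel and 3.68, 8.72 and 12.6 CPM in SC saline. The groups did not overlap, and the log2 fold change was -2.49 ± 0.29 (adjusted p 4.34e-07). Herpud1 had 44.8, 50.4 and 56.2 CPM in SC gel and 61.8, 75.5 and 93.4 CPM in SC saline. Those groups were apart as well, with a log2 fold change of -0.58 ± 0.10 (adjusted p 2.67e-05). Hyou1 had 52.1, 65.7 and 68.5 CPM in SC gel and 71, 78.8 and 84.6 CPM in SC saline. All gel libraries were lower, and the log2 fold change was -0.34 ± 0.07 (adjusted p 2.68e-04). Dnajb9 had 30.5, 32.3 and 36.5 CPM in SC gel and 34.3, 42.5 and 54.1 CPM in SC saline, groups that overlapped (-0.41 ± 0.10, adjusted p 0.0014). On log2(FPKM + 1) the values of Dnajb9, Hyou1, Ern1 and Pdia4 were -0.15, -0.10, -0.06 and -0.00 and none of them passed the test, so that only Chac1 and Herpud1 fell on both scales.

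Of the sensors and transcription factors, Eif2ak3 and Ddit3 rose, Ern1 fell, and Atf6, Xbp1 and Atf4 did not pass the test at the subcutaneous site. Ern1 had 8.65, 10.3 and 13.8 CPM in SC gel and 11.6, 13.1 and 16 CPM in SC saline (-0.31 ± 0.10, adjusted p 0.0163). Without SC saline 2, where the median of all genes was 0.13, its value was -0.13 with an adjusted p of 0.318. Without SC gel 2, SC gel 3 or SC gel 5 the adjusted p of Ern1 was 0.0764, 0.0538 or 0.0501. Eif2ak3 had 43.3, 44.9 and 50.7 CPM in SC gel and 34, 39.8 and 45 CPM in SC saline (0.21 ± 0.07, adjusted p 0.0163). In both, the groups overlapped. Atf6, Xbp1 and Atf4 had log2 fold changes of -0.08, 0.09 and -0.13 and 95% intervals of -0.21 to 0.06, -0.06 to 0.24 and -0.32 to 0.06. By limma on log2(FPKM + 1) Atf6 was higher in SC gel (0.15, adjusted p 0.0372), as was Xbp1 (0.32, adjusted p 7.97e-05). Xbp1 also passed the test without SC saline 2 (0.27, adjusted p 0.00215) and against ID saline in place of SC saline (0.24, adjusted p 0.00796), and Atf4 was lower against ID saline (-0.32, adjusted p 0.0047). Xbp1 had 121, 140 and 149 CPM in SC gel and 119, 129 and 155 CPM in SC saline. Atf6 had 80.8, 86.6 and 91.1 CPM in SC gel and 87.2, 89.8 and 96.1 CPM in SC saline, and Atf4 had 154, 176 and 182 CPM in SC gel and 160, 197 and 222 CPM in SC saline. For Hspa5, which had 370, 393 and 488 CPM in SC gel and 386, 438 and 483 CPM in SC saline, the log2 fold change was -0.08 with an interval of -0.27 to 0.12, which does not reach the rise in ID gel (1.13 to 1.53). Of the 11 genes with an ERSE or ERSE-II match, 3 rose and 2 fell at this site, with a median of 0.17. Of the 15 tested genes with a window and neither element, 9 rose and 3 fell, with a median of 0.21. Over all genes tested, 24.7% rose and 26.1% fell at this site, with a median of -0.00.

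The difference between the sites was tested directly. The gel effect, gel over saline, was larger at the intradermal site for 28 of the 31 genes and smaller for 0 by edgeR's test, by DESeq2 and by limma voom, where 55.8% of all genes differed by edgeR's test, 32.8% in the direction of the intradermal site and 23.0% in the other. At an unadjusted p under 0.05, edgeR's test gave 29 larger and 0 smaller. The median difference of the 31 genes was 0.76, and that of all genes was 0.12. Sdf2l1, Ddit3, Hspa5, Hyou1, Calr and Sesn2 differed most, by 1.87 ± 0.34, 1.72 ± 0.25, 1.41 ± 0.13, 1.18 ± 0.10, 1.06 ± 0.19 and 1.06 ± 0.18 log2 units. For the sensors the differences were 0.67 for Atf6, 0.64 for Ern1 and 0.37 for Eif2ak3, and for Xbp1 and Atf4 they were 0.74 and 0.47. For Eif2ak3, ID gel against SC gel did not pass edgeR's test (0.06, adjusted p 0.494), while ID saline was below SC saline (-0.32, adjusted p 0.019). The 3 genes whose effects were not shown to differ were Trib3 (0.60, 95% interval 0.05 to 1.15, adjusted p 0.0565), Chac1 (0.74, interval -0.08 to 1.56, adjusted p 0.115) and Derl3 (0.21, interval -0.73 to 1.15, adjusted p 0.714). On log2(FPKM + 1) the differences of Eif2ak3, Atf4, Canx, Asns, Derl1, Dnajc3, Ern1 and Sec61b did not pass the test, that of Eif2ak3 being -0.01, which left 20 genes; of all genes called on that scale 31.8% were in the direction of the intradermal site, in place of 58.8%. Without SC saline 2, 25 genes differed, and the differences of Atf4, Asns and Eif2ak3 had adjusted p of 0.0608, 0.076 and 0.083. Of all genes called in that fit, 47.4% were in the direction of the intradermal site. The median difference was then 0.61 for the 31 genes and -0.02 for all genes.

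In ID gel against SC gel 29 genes were higher and 0 lower by edgeR's test, and 0 were lower at an unadjusted p under 0.05, by DESeq2 or by limma voom, where 68.1% of all genes were called, 40.1% higher and 28.0% lower, and all genes had a median of 0.11. The median of the 31 genes was 0.81. In 27 of them every ID gel library was above every SC gel library, which held for 27.4% of all genes. Sdf2l1 (1.96 ± 0.24), Ddit3 (1.47 ± 0.17), Chac1 (1.40 ± 0.30), Hspa5 (1.26 ± 0.10) and Hyou1 (1.21 ± 0.07) differed most. Eif2ak3 (0.06, 95% interval -0.09 to 0.20) and Derl3 (-0.25, interval -0.88 to 0.39) did not pass the test; on log2(FPKM + 1), where all genes had a median of -0.16 and 34.6% of the calls were higher in place of 58.9%, Eif2ak3 was lower in ID gel (-0.26). Chac1 is thus a gene that fell in gel at both sites and was still higher in ID gel than in SC gel, although these groups overlapped.

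A single gene of the set passed the test between the saline groups. In ID saline against SC saline no gene was higher and 1, Eif2ak3, was lower (-0.32 ± 0.07, adjusted p 0.019), where 3.22% of all genes were called, 1.67% higher and 1.54% lower. At an unadjusted p under 0.05, edgeR's test gave 4 genes higher and 3 lower; with Benjamini-Hochberg adjustment DESeq2 gave 0 higher and 1 lower, and limma voom 1 higher, Chac1, and 1 lower. Eif2ak3 had 28, 31.3 and 36 CPM in ID saline and 34, 39.8 and 45 CPM in SC saline, groups that overlapped slightly. Its adjusted p was 0.0502 without ID saline 3, 0.0501 without ID saline 4, 0.0572 without SC saline 1 and 0.0533 without SC saline 2. The largest difference was that of Chac1, at 10.7, 13.4 and 16.3 CPM in ID saline and 3.68, 8.72 and 12.6 CPM in SC saline (0.66 ± 0.26, adjusted p 0.144).

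**Figure D5:**
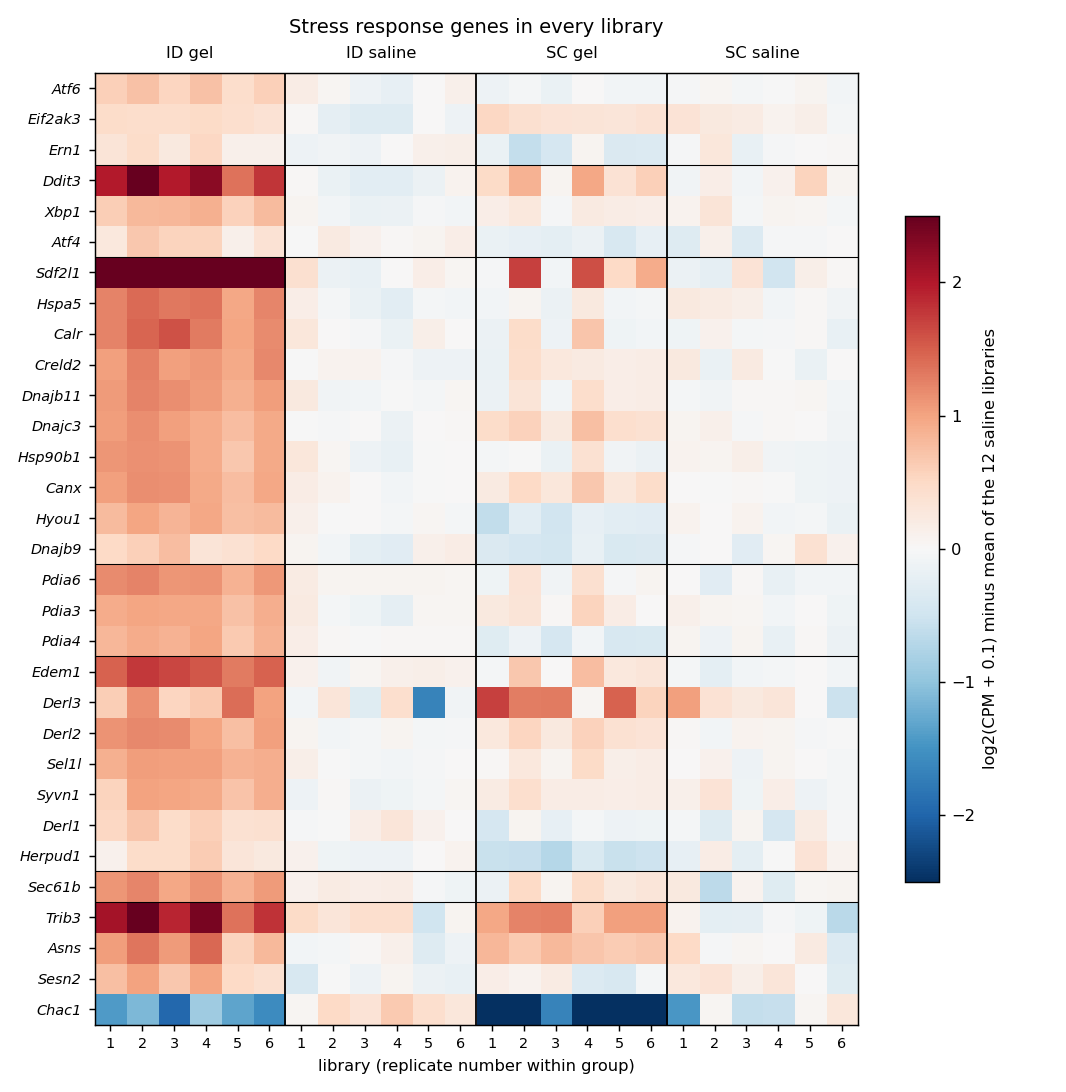
Each column is 1 library and each row 1 of the 31 tested genes; colour is log2(CPM + 0.1) minus the mean of the 12 saline libraries, limited to 2.5 in either direction. The ID gel columns are raised for nearly all rows, Chac1 is lowered in both gel groups, and within SC gel libraries 2 and 4 stand out for Sdf2l1.

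Within ID gel the libraries also differed in a shared way: ID gel 2 was the highest of its group for 21 of the 31 genes and ID gel 5 the lowest for 23. The summed level of the 10 tested chaperones with Manf was 4263 CPM in ID gel 5 and 4917 to 5751 CPM in the other ID gel libraries, against 2101 to 2717 CPM in ID saline. ID gel 5 also had the lowest macrophage marker sum of its group, 11463 CPM, and the highest skeletal muscle marker sum, 14170 CPM. The part of either cell type in the lower stress gene levels of ID gel 5 was not tested.

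Other genes of the same pathways, listed by function, moved in part with the set. Of all genes tested, 36.6% rose and 37.0% fell in ID gel, and 24.7% rose and 26.1% fell in SC gel. These shares stand beside every list count given here and in the paragraphs that follow on further lists. Of 22 further folding enzymes and chaperones 19 rose and 1 fell in ID gel against ID saline, with a median of 0.71. The largest rise was that of Ero1a, the oxidase that recharges the disulfide isomerases, at 574 ± 148 CPM in ID gel and 53 ± 3.73 CPM in ID saline (SD, n = 6 each; log2 fold change 3.44 ± 0.14), followed by P4hb, an isomerase and subunit of the collagen prolyl hydroxylase (2.04 ± 0.13). Sdf2, the paralog of Sdf2l1, fell by 0.22 on the log2 scale. In SC gel against SC saline 7 of the 22 rose and 4 fell; Sdf2 was higher (0.33) and Serpinh1, the collagen chaperone HSP47, was lower, at 366 ± 54.8 CPM in SC gel and 732 ± 65.7 CPM in SC saline (SD, n = 6 each). Of 15 further degradation genes 10 rose and 1 fell in ID gel and 7 rose and 3 fell in SC gel, with Edem2 highest (1.22 and 0.51) and Ube2g2, a ubiquitin-conjugating enzyme, lowest (-0.83 and -0.69). Of 15 tested translocon and signal peptidase genes 12 rose and 3 did not pass the test in ID gel, led by Sec61a1 (1.26) and Tram1 (1.22), and 5 rose and 2 fell in SC gel.

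Of 12 other sensors, kinases and membrane-bound factors 9 rose and 1 fell in ID gel, led by Eif2ak2, the kinase PKR that senses double-stranded RNA (1.15), and 3 rose and 3 fell in SC gel. Of 18 tested further factors and targets of the integrated stress response 11 rose and 6 fell in ID gel, and 6 rose and 4 fell in SC gel. Gdf15, a secreted stress cytokine, had 8.05 ± 2.01 CPM in ID gel and 0.0204 ± 0.0318 CPM in ID saline, and 1.11 ± 1.27 CPM in SC gel and 0.0629 ± 0.0728 CPM in SC saline (SD, n = 6 each); it passed the test at both sites, but its saline levels are below the value of 3 counts, so no fold is given. Atf3, an early stress transcription factor, rose at both sites (3.72 ± 0.41 in ID and 0.94 ± 0.37 in SC). The enzymes of serine synthesis moved in opposite directions at the sites: Phgdh, Psat1 and Psph had log2 fold changes of -1.15, -0.48 and -0.46 in ID gel against ID saline and 0.55, 0.99 and 1.14 in SC gel against SC saline. The differences between these effects were -1.70 ± 0.22, -1.48 ± 0.22 and -1.60 ± 0.20, with adjusted p of 1.35e-06, 6.07e-06 and 5.62e-07. These genes were picked out of the list after their values were seen.

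Of 11 tested cytosolic aminoacyl-tRNA synthetases, known ATF4 targets in part, 8 rose and 1 fell in ID gel, led by Wars1 (1.61), and 1 rose and 3 fell in SC gel. Of 7 tested genes of stress-linked cell death 6 rose and 1, Casp12, did not pass the test in ID gel (-0.33 ± 0.19), led by Bcl2l11 (1.90 ± 0.14) and Bak1 (1.84 ± 0.10), which encode BIM and BAK, while in SC gel 1 rose, Casp4 (0.65 ± 0.17). Stress genes of other compartments were counted in the same way, where 36.6% of all genes rose and 37.0% fell in ID gel and 24.7% rose and 26.1% fell in SC gel. Of 10 tested cytosolic heat shock genes 4 rose and 6 fell in ID gel, with Hspb1 lowest (-2.54 ± 0.23), and 2 rose and 5 fell in SC gel. Of 7 genes of the mitochondrial unfolded protein response 2 rose and 3 fell in ID gel, with Hspa9 highest (1.06), and 2 fell and 5 did not pass the test in SC gel.

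Markers of secretory and resident skin cells gave the following levels. The summed level of the plasma cell markers was 32.9 to 59.4 CPM in ID gel, 11.1 to 23.5 CPM in ID saline, 11.2 to 23.8 CPM in SC gel and 15.9 to 29.9 CPM in SC saline; 3 of the 8 could be tested. In ID gel Irf4 rose (1.92 ± 0.22), and Cd79a and Jchain, the joining chain of secreted antibodies, did not pass the test (0.51 ± 0.38 and -0.00 ± 0.39). In SC gel Cd79a rose (0.90 ± 0.36), Jchain fell (-1.92 ± 0.40) and Irf4 did not pass the test (0.11 ± 0.22). The summed level of 7 fibroblast markers was 32826 to 70137 CPM in ID gel, 27686 to 58971 CPM in ID saline, 35710 to 76874 CPM in SC gel and 68505 to 113971 CPM in SC saline. In ID gel 3 of the 7 rose, Lum (2.40 ± 0.26), Col3a1 (0.55 ± 0.23) and Pdgfra (0.39 ± 0.16), and in SC gel 3 fell, Col3a1 (-1.02 ± 0.23), Col1a1 (-0.87 ± 0.27) and Col1a2 (-0.75 ± 0.26). Keratinocyte markers summed to 1329 to 5005 CPM in ID gel, 4589 to 9037 CPM in ID saline, 12031 to 18288 CPM in SC gel and 4221 to 6169 CPM in SC saline. All 4 tested keratinocyte markers fell in ID gel, while in SC gel 3 rose and 1, Ivl, fell (-1.61 ± 0.28). Among the other marker lists, in ID gel 1 of 5 neutrophil markers rose and 2 fell, 4 of 5 sebaceous gland, 5 of 5 adipocyte, 4 of 4 smooth muscle and 3 of 4 mast cell markers fell, and of 4 endothelial markers 2 rose and 2 fell. In SC gel 3 neutrophil, 3 sebaceous gland, 2 adipocyte and 3 mast cell markers rose, 1 neutrophil, 1 sebaceous gland, 1 adipocyte and 2 smooth muscle markers fell, and the endothelial markers did not pass the test. The part of these markers in the changes of the stress genes was not tested.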

How the data were processed

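Skin RNA of 24 rat samples in 4 groups of 6 was analysed; groups were taken from the sample titles. For every gene and library the deposited table holds a count of reads and an FPKM value, per the file headers. The submitters' processing notes name Trimmomatic 0.36, FastQC 0.11.2, DESeq2 1.12.4, StringTie 1.3.3b and the build Rnor_6.0, with no role or order. No source used here names the aligner or the counter or says how they treated strand and shared reads. The deposited FPKM values equal count over length and library total. A single emptied line of the table is not reported here.

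The deposited counts were fitted with edgeR 4.0.16 (R 4.3.3). Genes were kept by filterByExpr with its default limits and the groups (14763 kept), libraries were scaled by TMM, and 1 mean per group was fitted over all 24 libraries (20 residual degrees of freedom). The quasi-likelihood test was adjusted by Benjamini-Hochberg over all genes tested and called under 0.05. The SE is the size of the log2 fold change divided by the root of F. FPKM served to compare levels between genes and as another scale. The number of libraries limits the precision of each fold change, and the value of 3 counts covers counting error only. The method was tested on simulated counts in which few genes were changed, as many up as down. Such a test does not cover the scaling of libraries where most genes were called, as in ID gel.

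The 33 genes, the lists of pathway and marker genes and the tests were chosen with earlier results of these data known. Named with full values were the sensors and transcription factors, up to 5 rises and 5 falls per comparison among the 33, and up to 2 per direction in each other list; further genes named were chosen after their values were seen. Of 187 list entries outside the 33 genes, 5 had no usable match. Promoter sequences are RefSeq's, on GRCr8. The alternatives tried were DESeq2 1.42.0, limma voom (limma 3.58.1), RLE factors in edgeR, the fit without a filter or with at least 10 counts in 12 libraries, the compared groups alone, a replicate block, limma on the FPKM scale (pseudocount 1 or 0.1, genes reaching 1 FPKM in 6 libraries), exchanged saline groups, gel replicates 1 to 3 or 4 to 6, each library left out, and, added after seeing the data, SC gel 2 and 4 left out together.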

Additional observations from a re-analysis of the deposited data

Results flagged for a closer look

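Gel effects that differed between the sites, by a test of the difference itself in edgeR's quasi-likelihood model, were found for 28 genes. The differences, the gel effect at the intradermal site minus that at the subcutaneous site in log2 units, were as follows. Among sensors and transcription factors they were 0.64 for Ern1, 0.37 for Eif2ak3, 0.67 for Atf6, 0.74 for Xbp1, 0.47 for Atf4 and 1.72 for Ddit3. Among chaperones they were 1.41 for Hspa5, 0.98 for Hsp90b1, 1.06 for Calr, 0.53 for Canx, 1.18 for Hyou1, 0.95 for Dnajb9, 0.89 for Dnajb11, 0.55 for Dnajc3, 1.87 for Sdf2l1 and 0.95 for Creld2. Among isomerases they were 0.70 for Pdia3, 1.05 for Pdia4 and 0.81 for Pdia6. Among degradation genes they were 0.98 for Herpud1, 0.77 for Sel1l, 0.76 for Syvn1, 1.04 for Edem1, 0.48 for Derl1 and 0.68 for Derl2. They were 0.66 for Sec61b, 0.51 for Asns and 1.06 for Sesn2. For Eif2ak3, ID gel against SC gel did not pass the test, while ID saline was below SC saline.

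In 11 of 124 sets of 6 libraries (31 genes in 4 groups) the highest or lowest library stood far from the rest of its group. For a single set, chance gives this about 1 time in 20. The sets share the same 24 libraries and are not independent, so their count cannot be measured against that rate. In SC gel the outlying values were those of library 4 for Hsp90b1 (538 CPM) and Dnajb9 (36.5 CPM), library 2 for Syvn1 (37.1 CPM) and library 3 for Chac1 (3.18 CPM). In ID saline they were library 1 for Dnajb11 (71.4 CPM), Pdia4 (123 CPM) and Pdia6 (191 CPM), all high, and library 4 for Dnajc3 (41.3 CPM), low. In SC saline they were library 2 for Xbp1 (155 CPM, high) and Edem1 (155 CPM, low) and library 5 for Ddit3 (11.1 CPM, high).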

How the results depend on the processing

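Of 4030 log2 fold changes of single genes recomputed under other settings, 3805 kept their direction and their side of the threshold, 90 lost the call, 49 gained one, 77 changed sign without passing the test under either setting, and 9 changed sign where the test was passed under at least 1 of them. In ID gel against ID saline the counts were 28 to 31 genes higher and 1 lower under every setting. The count of 31 came from the fit without a filter, where 32 genes were tested, Manf among them. In SC gel against SC saline the main counts of 13 higher and 6 lower became 20 and 2 on log2(FPKM + 1) and on log2(FPKM + 0.1). All genes had medians of 0.19 and 0.23 on these scales, and Atf6 changed sign to 0.15 and 0.16. The replicate block gave 11 and 6, and leaving out single libraries gave 10 to 19 higher and 4 to 6 lower. The 19 and 4 were those without SC saline 2, where all genes had a median of 0.13. In ID gel against SC gel both FPKM scales gave 1 gene lower, Eif2ak3 (-0.26 and -0.28), and Asns was at -0.02 and -0.02. In the difference between sites Eif2ak3 was -0.01 and -0.01 on the FPKM scales and -0.26 with the saline groups exchanged, which gave 1 gene with the smaller effect at the intradermal site. In ID saline against SC saline 475 genes were called, 1038 by DESeq2 and 316 without a filter, and 132 to 888 with single libraries left out; 1 gene of the set was higher by limma voom and on log2(FPKM + 1), 0 were lower on either FPKM scale, and 0 to 1 were lower with single libraries left out. Replicate numbers were not treated as pairs, since the labels do not state pairs. Same-numbered libraries of different groups had deviations correlated at -0.241 to 0.421. The highest were in ID gel against SC gel, at 0.391, 0.421 and 0.409 for replicates 1, 2 and 6, each matching its own number best. Replicate 3 matched its own number best in ID saline against SC saline (0.379) and SC gel (0.345). It did so too in SC gel against SC saline (0.275). Replicate 5 did so in ID saline against SC saline (0.226) and SC gel (0.136). All other libraries matched another number best. Under the replicate block 29 genes were higher and 0 lower in ID gel against SC gel. The ID counts against saline stayed at 30 and 1. The cause of these changes was not tested. Differences of genes at a few CPM (Chac1, Derl3, Trib3) are limited by depth and by 6 libraries a group.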
